A study of Mus musculus with 8 samples.

Results

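Fibroblast growth factor (FGF) signalling was followed in wild type (WT) and Pcgf5-/- mouse embryonic stem cells (mESCs) through 10 genes, which were picked by gene name: the ligands Fgf4, Fgf5, Fgf8 and Fgf15, the receptors Fgfr1, Fgfr2, Fgfr3 and Fgfr4, and the feedback inhibitors Spry2 and Spry4. All 10 were found among the 24849 genes listed in each of the 8 RNA-seq samples. The cells were of the MPI-II line, of 129S2/SvPas background. In Pcgf5-/- cells both alleles of Pcgf5, a subunit of a variant Polycomb repressive complex, had been disrupted with TALENs in exon 2 and single colonies were picked, but the sources used here do not say whether the RNA came from 1 colony. Both genotypes were sampled before differentiation (day 0) and after 6 days of it (day 6), and each of the 4 groups had 2 samples. The day 0 cells grew on feeders in medium with serum, LIF and the inhibitors CHIR99021 and PD0325901, whereas the day 6 cells had been kept in N2B27 medium. PD0325901 blocks MEK, the kinase that activates ERK downstream of FGF receptors, so that the day, the feeders, the medium and the block of MEK cannot be told apart in any comparison of the days. The study's methods describe its samples in general as biologically independent, and the legends of its day 6 expression heatmaps say so of each lane. The labels do not name separate cultures, so the p-values measure the spread between these samples, which may be partly technical.

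FGF ligands bind receptor tyrosine kinases at the cell surface together with heparan sulphate or a Klotho co-receptor, and the receptors pass the signal through FRS2, GRB2 and RAS to the kinases RAF, MEK and ERK. ERK in turn switches on ETS transcription factors of the Etv4 and Etv5 kind and the inhibitors of its own pathway, among them the Sprouty proteins, which act between the receptor and RAF. In mESCs, FGF4 made by the cells themselves is known to drive the exit from the naive state, and FGF signalling is needed early in neural induction. Fgf5 marks the epiblast after implantation, Fgf8 and Fgf15 are made in the developing brain, and Fgfr2 and Fgfr3 are receptors of neural progenitors.

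The expression values were FPKM (fragments per kilobase of transcript, scaled to the mapped fragments of the sample), which are per length, so that levels of different genes could be set side by side. No read counts were used, so counting error of single values is not given here. The deepest sample had 1.30 times the depth of the shallowest, as read from the common ratio of low values. Pcgf5 itself stood at 5.18 and 3.63 FPKM in the WT samples of day 0 and at 1.28 and 1.84 in the Pcgf5-/- samples, and at 9.16 and 5.06 against 0.669 and 0.457 at day 6, where limma gave a fall of log2 −2.33 ± 0.28 (SE, adjusted p = 0.00421). The Pcgf5 values of WT and Pcgf5-/- lay apart at both days, but the day 0 difference of −1.07 ± 0.28 did not pass the threshold of 0.05 (adjusted p = 0.105). A list of 10 mESC markers summed to 1530 to 1730 FPKM in the 4 samples of day 0, to 103 and 248 in WT at day 6 and to 699 and 795 in Pcgf5-/- at day 6. A list of 10 neural progenitor markers summed to 229 to 314 at day 0, to 731 and 777 in WT at day 6 and to 316 and 329 in Pcgf5-/- at day 6. At day 6, 9 of 10 mESC markers were higher and 9 of 10 neural progenitor markers lower in Pcgf5-/- by limma with an adjusted p under 0.05. Among single markers, the pluripotency factor Pou5f1 stood at 93.8 and 36.2 FPKM in WT against 254 and 229 in Pcgf5-/- at day 6, and the neural progenitor factor Sox1 at 50.3 and 67.9 against 22.7 and 28.3. In bulk RNA, fewer cells of a type and less RNA per cell cannot be told apart.

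Some libraries stood apart in markers of other cells. The 12 fibroblast markers of feeders summed to 211 to 345 FPKM in 3 samples of day 0, to 667 in the second Pcgf5-/- sample of day 0 and to 15.6 to 44.1 at day 6. The 10 primitive endoderm markers summed to 383 in the first WT sample of day 6, against 110 to 159 in the other 3 samples of that day. At day 0 they summed to 306 in the second Pcgf5-/- sample and to 136 to 182 in the other 3. The 8 trophoblast markers summed to 153 in the second WT sample of day 6, against 63.3 to 80.5 in the other 3 samples of that day. At day 6 the 8 formative epiblast markers summed to 203 and 149 FPKM in WT and 330 and 197 in Pcgf5-/- (2 of 8 called higher, 1 lower), and the 10 neuron markers to 565 and 407 against 202 and 189 (5 of 10 lower). The 8 markers of the midbrain-hindbrain boundary, where Fgf8 is made, summed to 35.2 and 25.4 against 20.2 and 15.2 (1 of the 7 tested lower). Anterior forebrain, mesendoderm and trophoblast lists had 1 of 3, 0 of 5 and 1 of 5 tested genes called at day 6, beside 16.6% of all genes. Each marker list had 0 genes at 0 FPKM in all samples. How far these cells enter the FGF gene values was not tested.

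**Figure D1:**
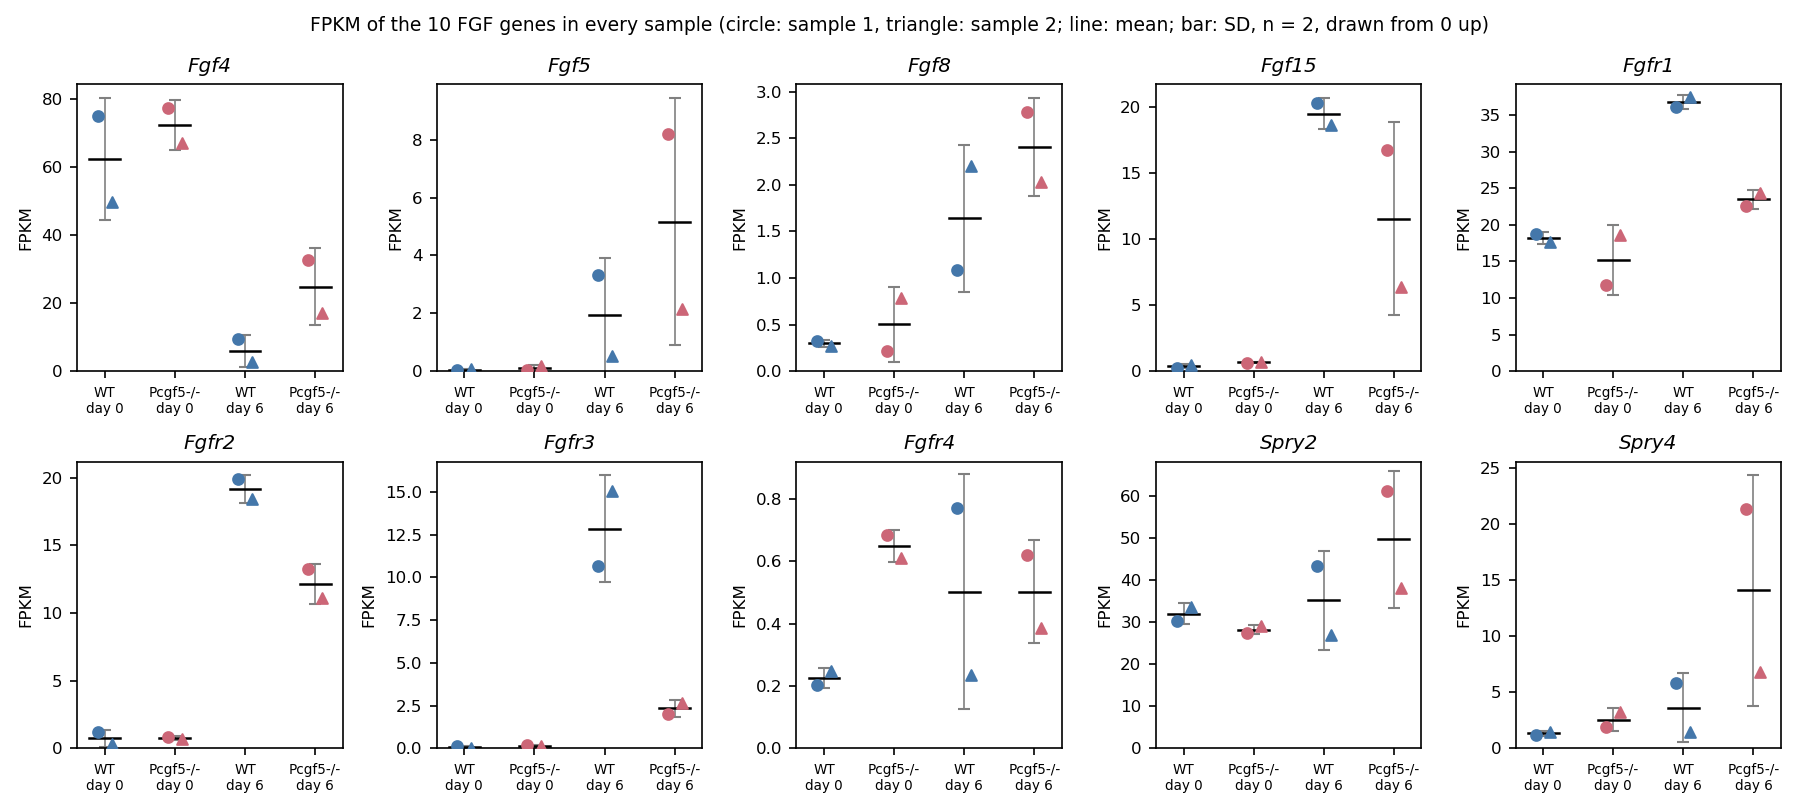
FPKM of each of the 10 FGF genes (vertical axis, linear and from 0, with its own scale in each panel) in the 4 groups (horizontal axis), with circles for sample 1, triangles for sample 2, lines for means and bars for the SD of 2 samples, cut at 0. Fgf4 fell from 49.8 FPKM or more at day 0 to 2.59 and 9.35 in WT at day 6 but stood at 17 and 32.8 in Pcgf5-/-, while Fgfr3 reached 10.6 and 15.1 in WT and 2.00 and 2.68 in Pcgf5-/-.

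The first question was where each ligand stood in WT and Pcgf5-/- cells at both days. Fgf4, the main FGF of naive mESCs, was the most abundant of the 22 FGF ligand genes measured at day 0. It stood at 75.2 and 49.8 FPKM in WT and at 77.6 and 67.2 in Pcgf5-/- at day 0, and at 9.35 and 2.59 in WT and 32.8 and 17 in Pcgf5-/- at day 6. The samples of both genotypes overlapped at day 0 and lay apart at day 6, where each Pcgf5-/- sample was above both WT samples and below all samples of day 0. The mean at day 6 was 24.9 ± 11.2 FPKM (SD, n = 2) in Pcgf5-/- and 5.97 ± 4.78 (SD, n = 2) in WT, a ratio of 4.17. On the log2(FPKM + 1) scale the difference was 2.02 ± 0.48 (SE) with an adjusted p of 0.0267 by limma, which was past the threshold of 0.05. This call was lost without the first Pcgf5-/- sample of day 6 (1.56, adjusted p = 0.153) and without the second WT sample of day 6 (1.25, adjusted p = 0.111), in a fit of the day 6 groups alone (2.02, adjusted p = 0.0759) and with no FPKM minimum (0.0796), with the direction kept.

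Over the 6 days, Fgf4 fell by 3.35 ± 0.48 (SE) on the log2(FPKM + 1) scale in WT (adjusted p = 0.000729 by limma) and by 1.57 ± 0.48 in Pcgf5-/- (adjusted p = 0.0375). The Pcgf5-/- call was lost without any 1 of the 4 samples of day 0 (adjusted p from 0.0508 to 0.142) and without the second Pcgf5-/- sample of day 6 (0.201). The change of the genotype effect from day 0 to day 6, 1.78 ± 0.68, was not past the threshold (adjusted p = 0.170), with a 95% interval from 0.23 to 3.33 before adjustment. Without the first WT sample of day 6, the sample with the high primitive endoderm markers, it was 2.54 with an adjusted p of 0.0465.

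Fgf4 lies on chromosome 7 (build mm9) from 152047291 to 152051148, in a row of FGF genes, with Fgf3 before it and Fgf15, which starts 31.3 kb after its end. The promoter of Fgf4 is shown because, of Fgf4, Fgf5, Fgf8 and Fgf15, only Fgf4 passed the threshold between WT and Pcgf5-/- at day 6. The 250 bases before its annotated start are given from RefSeq (build GRCm38.p6, chr7:144861136-144861385, plus strand), 5′ to 3′, with capitals for GGGCGG (the GC box, on either strand) and for TATATA.
Fgf4: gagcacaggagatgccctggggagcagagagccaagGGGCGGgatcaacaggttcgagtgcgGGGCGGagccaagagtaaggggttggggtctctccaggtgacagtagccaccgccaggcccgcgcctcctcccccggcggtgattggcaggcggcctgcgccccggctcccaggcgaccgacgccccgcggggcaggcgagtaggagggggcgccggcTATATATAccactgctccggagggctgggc
It held 2 GC boxes, which begin 214 and 188 bases before the start, and 2 overlapping matches to TATATA, which begin 30 and 28 bases before it. Of the 32851 promoters of the same length in the RefSeq table, 32.7% hold GGGCGG on either strand and 5.25% hold TATATA. The Fgf4 window had 21 CpG dinucleotides, more than 83.7% of all these promoters, and a GC content of 71.2%. Searched on both strands, it held neither TATAAA, a string in 12.4% of all promoters, nor the E-box CACGTG, which is in 6.02%. It also lacked the octamer ATTTGCAT, which is in 1.6% of all promoters, and the ETS core CCGGAA, which is in 12% of them.

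Fgf15, a ligand of the FGF19 group made in the neural tube and the midbrain, moved the other way over the 6 days. It stood at 0.246 and 0.486 FPKM in WT and 0.625 and 0.693 in Pcgf5-/- at day 0, and at 20.3 and 18.6 in WT and 16.7 and 6.38 in Pcgf5-/- at day 6. All samples of day 6 were above all samples of day 0, and both WT samples of day 6 were above both Pcgf5-/- samples, although the first Pcgf5-/- sample was nearer to WT than to the second. The rise was log2 3.91 ± 0.36 (SE, adjusted p = 8.47e-05 by limma) in WT and 2.78 ± 0.36 (adjusted p = 0.00122) in Pcgf5-/-. At day 6 the difference between the genotypes of −0.84 ± 0.36, with a 95% interval from −1.66 to −0.02, did not pass the threshold (adjusted p = 0.146). Without the first Pcgf5-/- sample of day 6 it was −1.47 (adjusted p = 0.0406).

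The genes within 250 kb of Fgf4 or Fgf15 were set beside them. Fgf3, another ligand of this cluster, stood at 5.20 and 3.37 FPKM in WT and 2.58 and 1.93 in Pcgf5-/- at day 6, and rose in WT by log2 1.13 ± 0.28 (adjusted p = 0.0110 by limma). That rise lost its call without the first WT sample of day 0 (adjusted p = 0.0679) or without the first WT sample of day 6 (adjusted p = 0.0695). Ccnd1, which encodes cyclin D1 and starts 68.5 kb after the start of Fgf4, rose in WT by 0.48 ± 0.13 (adjusted p = 0.0161), as did Oraov1 by 0.82 (adjusted p = 0.00473) and the chloride channel gene Ano1 by 0.83 (adjusted p = 0.00465). Of the 6 genes of this stretch, Fgf4 was the one that fell over the 6 days in WT, and it was the one past the threshold between the genotypes at day 6.

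Fgf5 was at the lower end of the scale at day 0, with 0.0301 and 0.0763 FPKM in WT and 0.0269 and 0.166 in Pcgf5-/-, and stood at 3.33 and 0.525 in WT and 8.19 and 2.15 in Pcgf5-/- at day 6. In both genotypes the first sample of day 6 was the higher, and the second Pcgf5-/- sample was below the first WT sample, so that the genotypes overlapped. The difference at day 6 of log2 1.07 ± 0.56 did not pass the threshold (adjusted p = 0.226 by limma, 95% interval from −0.21 to 2.35). Over the 6 days Fgf5 rose in Pcgf5-/- by 2.30 ± 0.56 (adjusted p = 0.0162), while in WT the difference of 1.29 ± 0.56 had an adjusted p of 0.0858. The Pcgf5-/- call was lost without either Pcgf5-/- sample of day 0 (adjusted p = 0.0726 and 0.0545) or the first of day 6 (0.0875), and the WT difference passed without the second WT sample of day 6 (2.04, adjusted p = 0.0233) or either Pcgf5-/- sample of day 6 (0.0463 and 0.0467). The WT value depended on the constant added before the log, with 3.27 (adjusted p = 0.0146) when 0.1 was added and 1.84 (adjusted p = 0.0483) when 0.5 was added.

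Fgf8, the ligand of the midbrain-hindbrain organizer, remained low throughout, at 0.323 and 0.273 FPKM in WT and 0.217 and 0.788 in Pcgf5-/- at day 0, and at 1.08 and 2.20 in WT and 2.78 and 2.04 in Pcgf5-/- at day 6. The days lay apart and the genotypes overlapped at each day. The rise was log2 0.99 ± 0.27 in WT (adjusted p = 0.0164 by limma) and 1.2 ± 0.27 in Pcgf5-/- (adjusted p = 0.0127). The WT call was lost without either WT sample of day 0 (adjusted p = 0.0578 and 0.0678), without the second WT sample of day 6 (0.0984) and under quantile normalization (0.0973), and the Pcgf5-/- call without the first Pcgf5-/- sample of day 0 (0.0768) or of day 6 (0.0723). At day 6 the genotypes differed by 0.39 ± 0.27 (adjusted p = 0.357, 95% interval from −0.23 to 1.02).

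Next, the makeup of the ligands was compared as the share of each gene in the summed FPKM of 22 FGF genes, where a share falls when another rises. The 22 are called ligands by family name only. They include the intracellular Fgf13, at 6.93% and 14.4% of the sum in WT and 1.95% and 4.33% in Pcgf5-/- at day 6. Fgf4 made up 85.7% and 84.7% of the sum in WT and 82.5% and 77.1% in Pcgf5-/- at day 0. At day 6 Fgf15 was the largest part in WT, with 39.2% and 45.9% against 18.0% and 6.39% for Fgf4. In Pcgf5-/- at day 6 the order was the reverse, with 41.3% and 39.9% for Fgf4 and 21.0% and 15.0% for Fgf15. The share of Fgf4 in Pcgf5-/- at day 6 thus lay between those of day 0 and of WT at day 6 in each sample. These shares are given as a description, with no test.

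**Figure D2:**
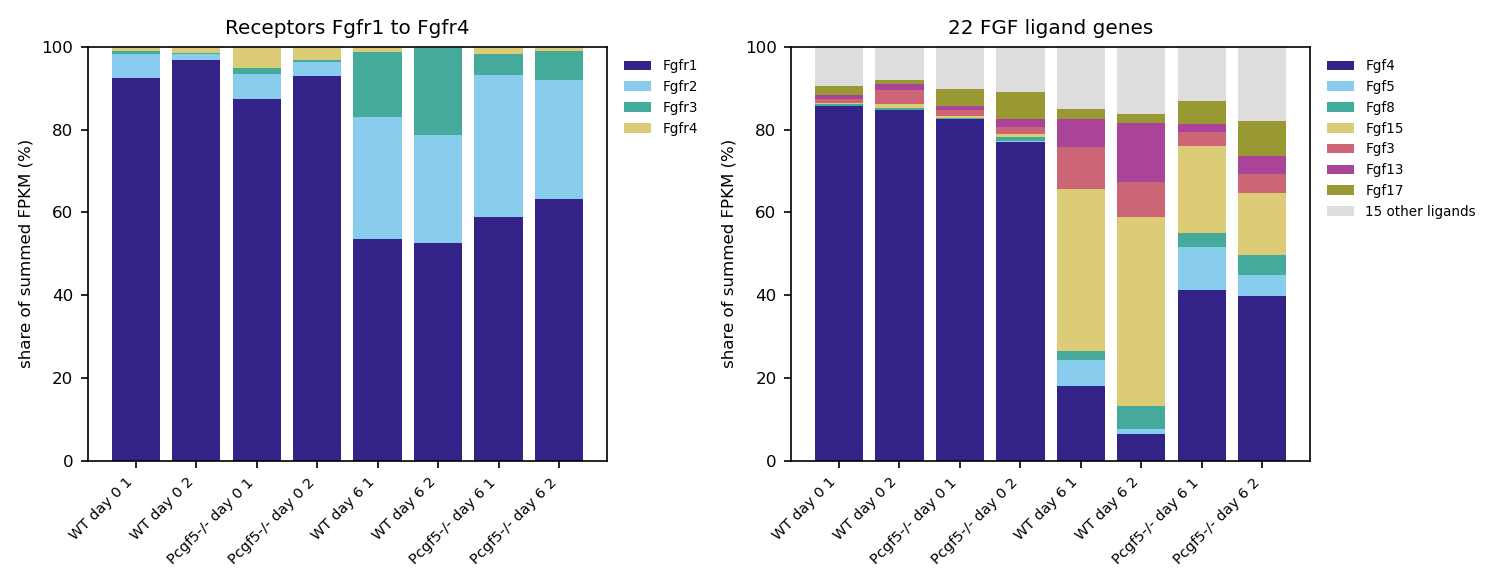
Share (percent, from 0 to 100) of each gene in the summed FPKM of the receptors Fgfr1 to Fgfr4 (left) and of 22 FGF ligand genes (right), with a stacked bar for each of the 8 samples. Fgf4 takes 77.1% or more of the ligand sum at day 0, and at day 6 the largest part is Fgf15 in both WT samples and Fgf4 in both Pcgf5-/- samples.

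The receptors were examined in the same way. Fgfr1 was the receptor with the highest FPKM in every sample. It stood at 18.7 and 17.6 FPKM in WT and 11.8 and 18.5 in Pcgf5-/- at day 0, and at 36.1 and 37.5 in WT and 22.5 and 24.4 in Pcgf5-/- at day 6. The genotypes overlapped at day 0 and lay apart at day 6, and in both genotypes day 6 lay above day 0. Fgfr1 rose in WT by log2 0.98 ± 0.19 (adjusted p = 0.00366 by limma). In Pcgf5-/- the rise was 0.63 ± 0.19 (adjusted p = 0.0399), a call that was lost without each of 7 of the 8 samples in turn and under both other scalings. At day 6 the difference between the genotypes of −0.63 ± 0.19, with a 95% interval from −1.08 to −0.18, had an adjusted p of 0.0606. It passed the threshold under quantile normalization (−0.75, adjusted p = 0.0272), under median-of-ratios scaling (−0.70, adjusted p = 0.0408), in a fit of the day 6 groups alone (adjusted p = 0.0364), and without either Pcgf5-/- sample of day 0 (adjusted p = 0.0242 and 0.0259).

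Fgfr2 stood at 1.17 and 0.290 FPKM in WT and 0.836 and 0.657 in Pcgf5-/- at day 0, and at 19.9 and 18.4 in WT and 13.2 and 11.1 in Pcgf5-/- at day 6. The genotypes overlapped at day 0, and at day 6 both WT samples were above both Pcgf5-/- samples. The rise over the 6 days was log2 3.59 ± 0.26 in WT (adjusted p = 2.68e-05 by limma) and 2.91 ± 0.26 in Pcgf5-/- (adjusted p = 0.000259). At day 6 the difference of −0.62 ± 0.26 between the genotypes (95% interval from −1.21 to −0.03) did not pass the threshold (adjusted p = 0.136).

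Fgfr3, a receptor that marks the ventricular zone of the developing brain, showed the largest difference in size among the receptors. It stood at 0.124 and 0.0448 FPKM in WT and 0.190 and 0.132 in Pcgf5-/- at day 0, where the intervals deposited with the WT values reached down to 0. At day 6 it stood at 10.6 and 15.1 in WT and at 2.00 and 2.68 in Pcgf5-/-. Every sample of day 6 was above every sample of day 0, and the lower WT sample of day 6 was above the higher Pcgf5-/- sample. The mean at day 6 was 12.9 ± 3.12 FPKM (SD, n = 2) in WT and 2.34 ± 0.484 (SD, n = 2) in Pcgf5-/-, a ratio of WT to Pcgf5-/- of 5.50. The difference was log2 −2.04 ± 0.22 (adjusted p = 0.00377 by limma) and kept its direction and its call without each of the 8 samples in turn (adjusted p from 0.0036 to 0.0365) and under the other settings tried (adjusted p from 0.00267 to 0.0275).

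Fgfr3 rose in WT by log2 3.66 ± 0.22 (adjusted p = 1.29e-05 by limma) and in Pcgf5-/- by 1.52 ± 0.22 (adjusted p = 0.00187). The change of the genotype effect from day 0 to day 6 was −2.14 ± 0.30 (adjusted p = 0.0253), and Fgfr3 was the only one of the 9 tested FGF genes past the threshold in this test. It kept its direction without each sample in turn, from −2.37 to −1.91, but lost the call without the second WT sample of day 0 (adjusted p = 0.102), the second Pcgf5-/- sample of day 0 (0.0797), the second WT sample of day 6 (0.0568), the first Pcgf5-/- sample of day 6 (0.103) or the second (0.0640), and with no FPKM minimum (0.0563). At day 6 the summed neural progenitor markers were, like Fgfr3, lower in Pcgf5-/- (329 and 316 FPKM) than in WT (731 and 777). In Pcgf5-/- their sum had been 229 and 314 at day 0, near that of day 6, but this sum hides rises of single genes. In Pcgf5-/- Sox1 rose over the 6 days by log2 4.14 (adjusted p = 6.82e-05 by limma), Pax6 by 3.5 (7.29e-05) and Nes by 0.93 (0.00437). Of the 10 listed markers, 6 and 6 were above 1 FPKM in the Pcgf5-/- samples of day 0, and 10 and 9 at day 6. The Fgfr3 mean in Pcgf5-/- rose from 0.161 to 2.34 FPKM. The part of these markers' cells in the level of Fgfr3 was not tested.

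The promoters of Fgfr3 and Fgfr2 are shown because both receptors rose from under 1.2 FPKM to over 10 in WT. The 250 bases before the annotated starts are from RefSeq (build GRCm38.p6), 5′ to 3′ along each gene, Fgfr3 at chr5:33721474-33721723 on the plus strand, the first of its 2 starts in that table, and Fgfr2 at chr7:130266809-130267058 on the minus strand. Capitals mark GGGCGG on either strand.
Fgfr3: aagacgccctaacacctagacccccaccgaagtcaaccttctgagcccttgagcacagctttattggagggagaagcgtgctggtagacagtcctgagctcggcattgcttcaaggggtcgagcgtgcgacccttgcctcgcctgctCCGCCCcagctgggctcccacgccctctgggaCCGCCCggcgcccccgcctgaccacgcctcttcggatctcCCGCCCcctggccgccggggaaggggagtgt
Fgfr2: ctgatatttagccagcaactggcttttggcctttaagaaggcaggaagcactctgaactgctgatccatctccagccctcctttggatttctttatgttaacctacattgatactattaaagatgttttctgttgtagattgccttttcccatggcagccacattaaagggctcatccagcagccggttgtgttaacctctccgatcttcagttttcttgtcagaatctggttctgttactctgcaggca
The Fgfr3 window held 3 GC boxes and 19 CpG dinucleotides, more CpG than 80.3% of all promoters, with a GC content of 66.8%. The Fgfr2 window held 0 GC boxes and 2 CpG dinucleotides, more than 18.8% of all promoters, with a GC content of 44%. Of the 10 genes, 6 had an entry in the table. The other windows were those of Fgf5 (24 CpG, 1 GC box), Fgfr4 (15 CpG, 2 GC boxes) and Spry2 (23 CpG, 0 GC boxes), beside a median of 6 CpG over all promoters.

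Fgfr4 was below 1 FPKM in all 8 samples, with 0.203 and 0.248 in WT and 0.686 and 0.612 in Pcgf5-/- at day 0, and 0.771 and 0.235 in WT and 0.619 and 0.387 in Pcgf5-/- at day 6. The genotypes lay apart at day 0 and overlapped at day 6. It did not reach the minimum mean of 1 FPKM and was not tested. The 4 receptors summed to 20.2 and 18.2 FPKM in WT and 13.5 and 19.9 in Pcgf5-/- at day 0, and to 67.4 and 71.3 in WT and 38.4 and 38.5 in Pcgf5-/- at day 6. Of this sum at day 6, Fgfr3 made up 15.8% and 21.1% in WT and 5.20% and 6.96% in Pcgf5-/-, while Fgfr1 made up 53.6% and 52.7% in WT and 58.8% and 63.3% in Pcgf5-/-.

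Sprouty genes encode inhibitors that ERK signalling itself induces. Spry2 was high in all groups, at 30.2 and 33.8 FPKM in WT and 27.5 and 29.1 in Pcgf5-/- at day 0, and at 43.5 and 26.9 in WT and 61.3 and 38.2 in Pcgf5-/- at day 6. The genotypes overlapped at day 6, and in both the first sample was the higher. It did not pass the threshold in any of the 5 comparisons. The nearest to it was the difference of the days in Pcgf5-/- (log2 0.76 ± 0.26, adjusted p = 0.0571 by limma). It passed without either WT sample of day 6 (adjusted p = 0.0364 and 0.0367) or the second Pcgf5-/- sample of day 6 (0.0346). The difference at day 6 was 0.49 ± 0.26 (adjusted p = 0.236, 95% interval from −0.11 to 1.09).

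Spry4 stood at 1.2 and 1.5 FPKM in WT and 1.87 and 3.27 in Pcgf5-/- at day 0, and at 5.81 and 1.45 in WT and 21.4 and 6.82 in Pcgf5-/- at day 6. Both Pcgf5-/- samples were above both WT samples at each day, and at day 6 the first sample was the higher in both genotypes. The mean at day 6 was 14.1 ± 10.3 FPKM (SD, n = 2) in Pcgf5-/- and 3.63 ± 3.08 (SD, n = 2) in WT. The difference at day 6 of log2 1.69 ± 0.57 (95% interval from 0.39 to 3.00) did not pass the threshold (adjusted p = 0.0760 by limma), while it did without the first WT sample of day 6 (2.43, adjusted p = 0.0430) and without the second Pcgf5-/- sample of day 6 (2.45, adjusted p = 0.0494). Over the 6 days Spry4 rose in Pcgf5-/- by 1.92 ± 0.57 (adjusted p = 0.0340) and differed in WT by 0.80 ± 0.57 (adjusted p = 0.266). The Pcgf5-/- call was lost without either WT sample of day 0, either Pcgf5-/- sample of day 0 or the first Pcgf5-/- sample of day 6. It was also lost under quantile normalization (adjusted p = 0.0529 by limma) and with no FPKM minimum (0.0935).

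Within the day 6 groups, the sample numbered 1 was above the sample numbered 2 in both genotypes for 7 of the 10 FGF genes. The ratio was 3.61 and 1.94 times for Fgf4, 6.34 and 3.81 times for Fgf5, 1.61 and 1.60 times for Spry2 and 4 and 3.14 times for Spry4, in WT and Pcgf5-/- respectively. For Fgf15 it was 1.09 and 2.61 times, for Fgfr2 1.08 and 1.19 times and for Fgfr4, which was below 1 FPKM, 3.27 and 1.6 times. The summed mESC markers were also higher in the first sample than in the second, at 248 against 103 FPKM in WT and 795 against 699 in Pcgf5-/-. Fgfr1 and Fgfr3 were lower in the first sample of both genotypes, at 0.963 and 0.924 times the second for Fgfr1 and 0.707 and 0.745 times for Fgfr3. Over all tested genes, the differences between samples 1 and 2 of day 6 correlated at r = 0.388 between the genotypes. The count of 7 of 10 was not set beside the same count over all genes. The part of cell state in these values of the FGF genes was not tested.

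**Figure D3:**
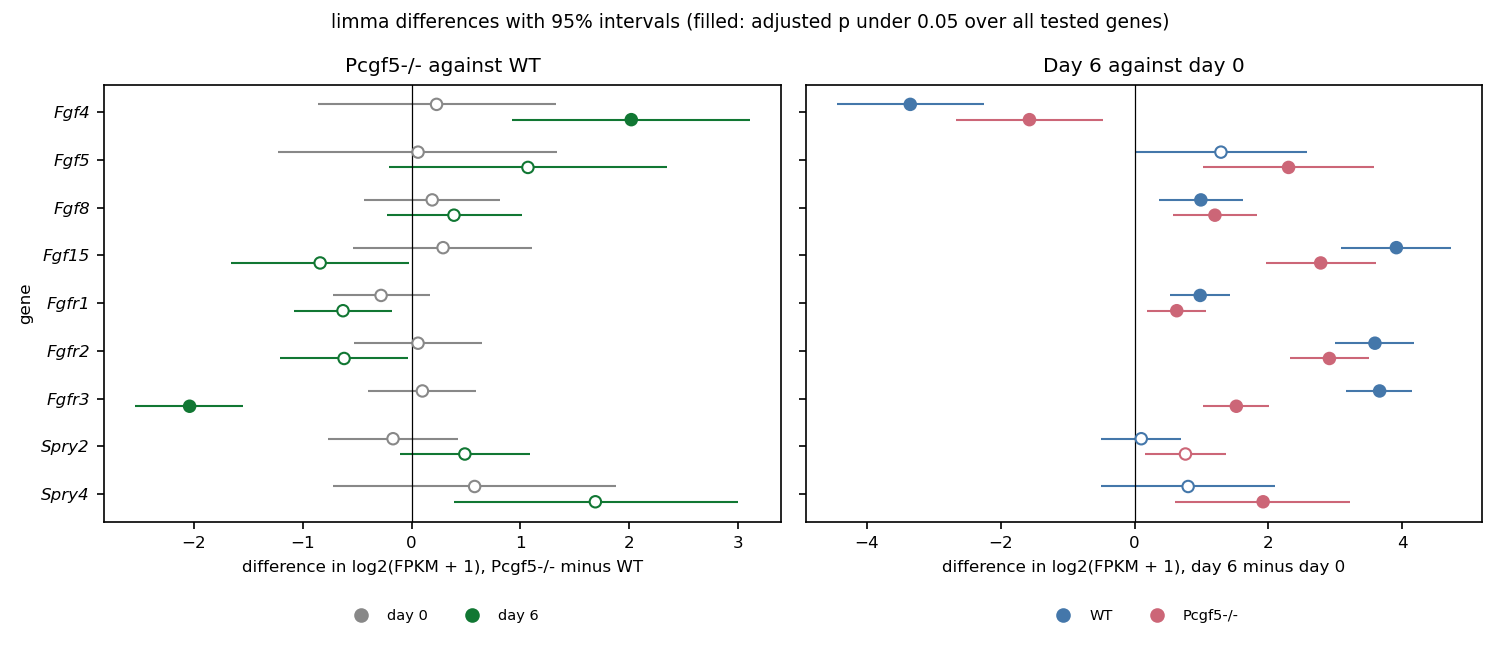
Differences in log2(FPKM + 1) (horizontal axis) of the 9 tested FGF genes (vertical axis) between Pcgf5-/- and WT at each day (left) and between the days in each genotype (right), as points with 95% intervals from limma, filled where the adjusted p is under 0.05. At day 6 Fgf4 (2.02) and Fgfr3 (−2.04) are filled on the left, and no gene is filled at day 0.

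Counted over the 9 FGF genes that reached a mean of 1 FPKM in at least 1 group, 0 of 9 differed between WT and Pcgf5-/- at day 0 with an adjusted p under 0.05 by limma, beside 0.333% of the 13214 genes tested. At an unadjusted p under 0.05 it was also 0 of 9, beside 2294 of all genes. At day 6, 2 of 9 differed, beside 16.6% of all genes, with Fgf4 higher (9.57% of all genes were higher) and Fgfr3 lower (7.05% were lower). An unadjusted p under 0.05 by limma was found at day 6 for 6 of 9, beside 4315 of the 13214 genes. The median difference at day 6 was log2 0.39 over the 9 genes and 0.02 over all genes. Fgf4 dropped out without the second WT sample of day 6. Without the first Pcgf5-/- sample of day 6 Fgf4 dropped out as well, while Fgf15 passed. Over all genes, too, fewer were called in both of these fits, so that such losses are not particular to the FGF genes.

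In the comparison of day 6 with day 0, 6 of 9 FGF genes differed in WT, beside 50.5% of all genes. Fgf8, Fgf15, Fgfr1, Fgfr2 and Fgfr3 were higher, beside 34.2% of all genes, and Fgf4 was lower, beside 16.2%. In Pcgf5-/-, 8 of 9 differed, beside 32.3% of all genes, with Fgf5, Fgf8, Fgf15, Fgfr1, Fgfr2, Fgfr3 and Spry4 higher, beside 21.9%, and Fgf4 lower, beside 10.4%. The Pcgf5-/- count was lower without each single sample of day 0 and without either Pcgf5-/- sample of day 6. The number called over all genes was lower in those fits too. The comparisons of the days share samples with those of the genotypes. The change of the genotype effect from day 0 to day 6 was past the threshold for 1 of 9, beside 3.09% of all genes, and that count was 0 without any of the 5 samples named for Fgfr3 and 2 without the first WT sample of day 6.

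Scaling moved the values of all genes. In WT the median difference of all genes over the 6 days was log2 0.22 and 67.8% of the calls were higher, against 0.00 and 51.3% under quantile normalization and the same under median-of-ratios scaling. In Pcgf5-/- 67.9% of the calls were higher, against 53.1% and 52.6%, and for the change of the genotype effect 43.4% against 57.7% and 51.0%. Between the genotypes at day 6, 57.6% of the calls were higher in Pcgf5-/-, against 52.2% under quantile normalization and 47.9% under median-of-ratios scaling. At day 0, 86.4% of the 44 calls between the genotypes were higher in Pcgf5-/-, against 0.0% of 3 and of 2 calls. Every FGF gene that passed the threshold kept its direction under both scalings, but not always its call. The rise of Fgfr1 in Pcgf5-/- lost its call under both. The rises of Fgf8 in WT and of Spry4 in Pcgf5-/- lost theirs under quantile normalization. The difference of Fgfr1 between the genotypes at day 6 was called under both.

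To place these genes in their pathway, 68 further genes were counted in 5 lists. Of 18 other FGF genes, listed as ligands by family name, 7 reached the FPKM minimum. At day 6, Fgf1 and Fgf17 were higher and Fgf13 was lower in Pcgf5-/-, and the median of the 7 was log2 −0.26, beside 0.02 for all genes. These 3 of 7 stood beside 16.6% of all genes called. Fgf17, a relative of Fgf8, stood at 1.24 and 0.847 FPKM in WT and 4.54 and 3.58 in Pcgf5-/-, a difference of 1.31 ± 0.33 (adjusted p = 0.0327 by limma). Both Pcgf5-/- samples were above both WT samples at day 0 too, with 4.05 and 5.70 against 2.00 and 0.487. Fgf1, which binds all FGF receptors, stood at 1.2 and 0.156 in WT and 4.91 and 2.08 in Pcgf5-/- (1.42 ± 0.36, adjusted p = 0.0341), and Fgf13, an intracellular FGF of neurons that acts on sodium channels, at 3.59 and 5.83 against 1.55 and 1.84 (−1.06 ± 0.27, adjusted p = 0.0328). Each of these 3 calls was lost without the first Pcgf5-/- sample of day 6 (adjusted p = 0.170 for Fgf1, 0.156 for Fgf17 and 0.149 for Fgf13), and each also without the second WT sample of day 6 (0.170, 0.160 and 0.171). Fgf17 also lost its call without the first WT sample of day 6 (0.0771), the library high in primitive endoderm markers, or the second Pcgf5-/- sample of day 6 (0.0832). Fgf1 also lost it without the second Pcgf5-/- sample of day 0 (0.0503), the library high in feeder markers, or either WT sample of day 0 (0.0545 and 0.0540), and Fgf13 without either WT sample of day 0 (0.0506 and 0.0504) or the second Pcgf5-/- sample of day 6 (0.0900).

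In WT, 3 of the 7 other ligands rose over the 6 days and 1 fell, together 57.1% of the list beside 50.5% of all genes. Fewer of the 7, and fewer of all genes, were called without the first WT sample of day 6. Fgf13 rose by log2 1.61 ± 0.27 (adjusted p = 0.00155 by limma) and Fgf3 as given above, while Fgf10, a ligand of mesenchyme, fell from 2.86 and 3.08 FPKM to 1.2 and 0.676 (−1.05 ± 0.20, adjusted p = 0.00316). Fgf10 and the fibroblast markers of feeders were both higher at day 0, and the part of feeders in its level was not tested.

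Of 8 co-receptors and FGF binding proteins, 5 reached the minimum. At day 6, 2 were lower and 0 higher in Pcgf5-/-, with a median of log2 −0.64, beside 7.05% of all genes lower. Fgfbp3, a secreted FGF binding protein, stood at 18.5 and 30.6 FPKM in WT and 6.07 and 9.97 in Pcgf5-/- at day 6 (−1.5 ± 0.32, adjusted p = 0.0187 by limma). Flrt3, a membrane protein that binds FGF receptors, stood at 16.5 and 11.9 against 6.65 and 5.30 (−1.12 ± 0.21, adjusted p = 0.0133). All samples of the genotypes lay apart for both. In WT both had risen over the 6 days, Fgfbp3 by 3.84 ± 0.32 (adjusted p = 5.15e-05) and Flrt3 by 1.89 ± 0.21 (adjusted p = 0.000225), among 3 of 5 genes that rose, beside 34.2% of all genes. The genotype calls were lost without the first Pcgf5-/- sample of day 6 (adjusted p = 0.112 for Fgfbp3 and 0.0556 for Flrt3), for Fgfbp3 also without the second WT sample of day 6 (0.114), and for Flrt3 also without the first WT sample (0.0725) or the second Pcgf5-/- sample (0.0664).

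The 20 genes from the receptor to ERK all reached the minimum. At day 6, 2 were higher and 1 lower in Pcgf5-/-, 15.0% of the list beside 16.6% of all genes, with a median of log2 0.10. Gab1, an adaptor that joins receptors to PI3 kinase and SHP2, stood at 38.5 and 28.1 FPKM in WT and 73.3 and 55.2 in Pcgf5-/- at day 6, against 80.6 and 89.2 in WT and 68.3 and 70.1 in Pcgf5-/- at day 0. It fell in WT by 1.34 ± 0.18 (adjusted p = 0.000602 by limma), and the genotypes differed at day 6 by 0.93 ± 0.18 (adjusted p = 0.0150), a call lost without the first Pcgf5-/- sample (0.0879) or the second WT sample (0.0853) of day 6. The calls of the adaptor Shc1 (0.51 ± 0.14, adjusted p = 0.0383) and of the RAS activator Sos2 (−0.80 ± 0.23, adjusted p = 0.0478) were lost when samples were left out in turn, Shc1 without each of the 8 and Sos2 without all but the WT samples of day 0. Among these, the first WT sample of day 6 (adjusted p = 0.174 for Shc1 and 0.173 for Sos2) and the second Pcgf5-/- sample of day 0 (0.0518 and 0.0655) were the libraries high in primitive endoderm or feeder markers. In WT, 8 of the 20 rose over the 6 days and 2 fell, 50.0% of the list beside 50.5% of all genes. The largest rises were those of Sos2 (1.80 ± 0.23, adjusted p = 0.000422) and Plcg1 (0.95 ± 0.21, adjusted p = 0.00618), and besides Gab1 the MEK gene Map2k1 fell (−0.96 ± 0.15, adjusted p = 0.00101).

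Of 12 other genes listed as feedback inhibitors, 11 reached the minimum, and Spry3 was listed at 0 in all samples. Besides Sprouty, Spred and Dusp genes the list held Rasa1, Nf1 and Cbl. Whether ERK induced each of these genes here was not tested. Between the genotypes at day 6, 0 of 11 passed the threshold by limma, beside 16.6% of all genes. An unadjusted p under 0.05 was found for 4 of 11, beside 4315 of the 13214 genes tested, and the median was log2 0.13. The count was 2 under quantile normalization, 1 in a fit of the day 6 groups alone, and 1 without the first WT sample of day 6 or either Pcgf5-/- sample of day 0. In WT, 7 of 11 rose, Rasa1 and Nf1 among them, and 0 fell over the 6 days, beside 34.2% of all genes higher. In Pcgf5-/- 7 rose and 0 fell, beside 21.9% of all genes higher. Fewer of this list, and fewer of all genes, were called without the first Pcgf5-/- sample of day 0 or the first of day 6. The ERK phosphatase gene Dusp4 rose in WT from 2.59 and 1.99 to 41.0 and 17.4 FPKM (3.09 ± 0.43, adjusted p = 0.000639) and Spred3, a Sprouty relative, from 1.33 and 0.846 to 9.95 and 6.89 (2.16 ± 0.23, adjusted p = 0.000191).

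Of the 10 ETS factors and early targets of FGF and ERK, 2 were higher and 0 lower in Pcgf5-/- at day 6, 20.0% of the list beside 16.6% of all genes (9.57% higher), with a median of log2 0.39. Etv5 stood at 95.7 and 110 FPKM in WT and 100 and 101 in Pcgf5-/- at day 0, and at 31.6 and 13.4 in WT and 81.5 and 53.7 in Pcgf5-/- at day 6. It fell in WT by 2.25 ± 0.34 (adjusted p = 0.00102 by limma) and differed between the genotypes at day 6 by 1.63 ± 0.34 (adjusted p = 0.0185). Etv4 stood at 8.33 and 1.91 in WT and 23.6 and 19.2 in Pcgf5-/- at day 6 (2.1 ± 0.46, adjusted p = 0.0206), and its samples lay apart at day 0 too, with 14.7 and 13.1 against 21.6 and 30.5. Etv4 lies on chromosome 11, where the median difference of 1086 tested genes between Pcgf5-/- and WT was 0.38 at day 6 and 0.48 at day 0, against 0.02 and 0.11 over all genes, and the FGF genes of the 10 lie on other chromosomes. Both calls were lost without the first Pcgf5-/- sample of day 6 (adjusted p = 0.112 for Etv4 and 0.113 for Etv5), for Etv4 also without the second (0.0687) and for Etv5 also without the second WT sample (0.0602). Both were also lost with no FPKM minimum (0.0639 for Etv4 and 0.0586 for Etv5) and in a fit of the day 6 groups alone (0.0653 and 0.0635).

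Over the 6 days in WT, 3 of these 10 rose and 5 fell, 80.0% of the list beside 50.5% of all genes. Fewer of the 10 were called without the first WT sample of day 0 or without the second WT sample of day 6. The number called over all genes was lower in those fits too. Besides Etv5, the early response gene Ier3 fell from 17.1 and 10.4 FPKM to 2.50 and 2.48 (−2.04 ± 0.27, adjusted p = 0.000551 by limma). The immediate early factor Egr1 rose (2.09 ± 0.48, adjusted p = 0.00697), as did Phlda1 (1.71 ± 0.31, adjusted p = 0.00238). At day 0, none of the 53 genes of the 5 lists that reached the minimum passed the threshold between the genotypes, beside 0.333% of all genes.

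**Figure D4:**
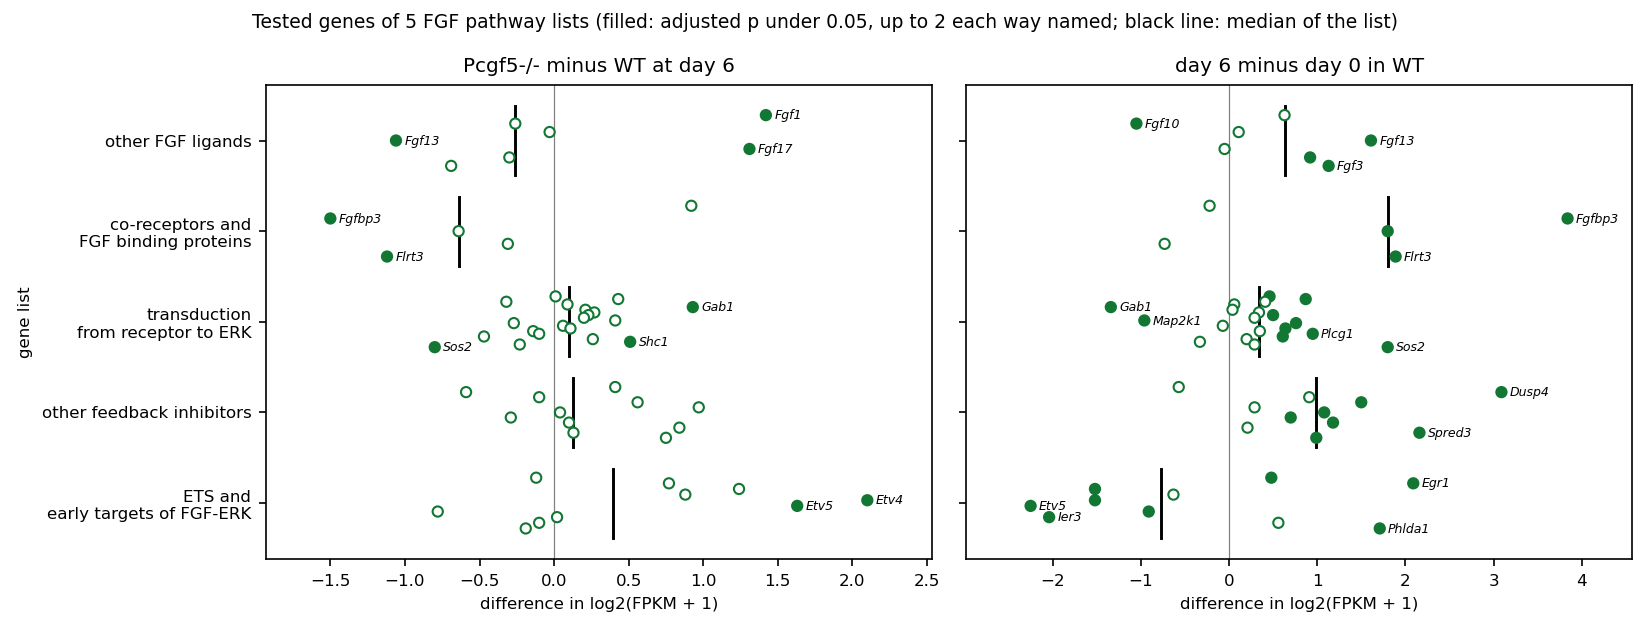
Differences in log2(FPKM + 1) (horizontal axis) between Pcgf5-/- and WT at day 6 (left) and between day 6 and day 0 in WT (right) for the tested genes of the 5 pathway lists (vertical axis), filled where the adjusted p is under 0.05 by limma, with black lines for list medians. At day 6 Etv4 (2.1) and Etv5 (1.63) are to the right and Fgfbp3 (−1.5) and Flrt3 (−1.12) to the left, and no feedback inhibitor on the list is filled.

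Finally, the genes with the most similar levels over the 8 samples were looked up by Pearson's r of log2(FPKM + 1) among 7165 tested genes with a range of at least 1 on that scale. The 8 samples share 4 conditions, so that such values are high for any gene that follows the days, and they are given as a description. For Fgf4 these were Trim25 (r = 0.998), Rps6ka1 (0.994), which encodes an ERK-activated ribosomal S6 kinase, and Atf1 (0.994). For Fgf15 they were Dapk1, Cnr1 and Nek9 (each 0.997), for Fgf5 Timp4 (0.986), Sptb (0.982) and Mmp25 (0.980), and for Fgf8 Fads2 (0.979), Prkch (0.978) and Rims4 (0.975).

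For Fgfr3 they were Vit (0.999), Zfp663 (0.998) and Lrrc4b (0.998). Vit, which encodes the matrix protein vitrin, stood at 10.1 and 15.2 FPKM in WT and 1.97 and 2.37 in Pcgf5-/- at day 6, and was listed at 0.0253 or less in all samples of day 0. For Fgfr2 they were 2610002M06Rik (0.998), Ndnf (0.997), a secreted factor of neurons, and Kif21a (0.996), a kinesin, and for Fgfr1 Cfl2 (0.987), LOC100504703 (0.986) and Lrig3 (0.981). Fgfr4 had Hist1h1d (0.905), Sec24a (0.858) and Slc26a2 (0.856), the lowest values among the 10 genes.

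For Spry2 they included Skil (0.990) and Chd9 (0.980), and for Spry4 Brdt (0.984) and Slc35d3 (0.981). Skil, which encodes the SMAD inhibitor SnoN, stood at 12.4 and 6.40 FPKM in WT and 21.8 and 11.6 in Pcgf5-/- at day 6. As for Spry2 itself, its first sample of day 6 was above the second in both genotypes.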

How the data were processed

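Poly(A)-selected RNA was sequenced from 8 samples. Per the labels and the submitters' processing notes, which name TopHat2 2.0.4, Cufflinks 2.1.1 and build mm9, the authors aligned the reads and computed FPKM per gene; these deposited FPKM values, with the interval bounds beside them, were the starting point. Duplicate reads had been removed by the authors, which can lower the values of abundant transcripts. Rows were joined by gene name and locus. Values were analysed as log2(FPKM + 1) for the 13214 genes whose group mean exceeded 1 FPKM in 1 or more of the 4 groups, in one limma 3.58.1 fit (R 4.3.3) of all 8 samples with a variance trend and no replicate block. P-values were Benjamini-Hochberg adjusted over all tested genes, and called under 0.05. Simulated data were used to test the fitting code. A fold change on this scale understates low genes. Levels of FPKM near 0 carry little precision, and the number of fragments behind a value was not used.

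Members, lists and tests were chosen with earlier results of these data known. Genes named were the 10 FGF genes, Pcgf5 and cell state markers, up to 2 rises and 2 falls per list and comparison, 3 similar genes per FGF gene with a locus of at least 300 bp, and genes within 250 kb of Fgf4 or Fgf15. Of the similar genes, 1 each for Spry2 and Spry4 is not reported here. Hras1 was matched as Hras. Coordinates are 1-based. Promoters came from RefSeq (GRCm38.p6). Alternatives were 2 other pseudocounts, 2 other minimums, 2 other scalings, a fit of the compared groups, no trend, replicate blocks and leaving out each sample.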

Additional observations from a re-analysis of the deposited data

Results flagged for a closer look

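The genotype effect differed between the days, by limma's test of that difference, for Fgfr3 (log2 −2.14 ± 0.30 SE, adjusted p = 0.0253) among the 9 tested FGF genes. Of the other genes named in the text it did so for Nanog (1.88 ± 0.36, adjusted p = 0.0396), Gab1 (1.22 ± 0.26, adjusted p = 0.0491), Flrt3 (−1.39 ± 0.30, adjusted p = 0.0497), Pax6 (−1.38 ± 0.29, adjusted p = 0.0491), Nes (−1.35 ± 0.23, adjusted p = 0.0315) and Tubb3 (−1.53 ± 0.29, adjusted p = 0.0390). A negative value means that the change from day 0 to day 6 was less upward in Pcgf5-/- than in WT. Nanog lies on chromosome 6, where the median difference of 643 tested genes between Pcgf5-/- and WT was 0.37 at day 6 and 0.41 at day 0. The calls of Flrt3 were lost without each of the 8 samples in turn, and those of Nanog, Gab1, Pax6, Nes and Tubb3 without 7 of the 8.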

How the results depend on the processing

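The number of FGF genes called between the genotypes at day 0 was 0 under all alternatives. At day 6 it was 2, and 1 with no FPKM minimum, when Fgf4 had an adjusted p of 0.0796 by limma, with a range of 1 to 3 without each sample in turn. Over the 6 days it was 6 in WT (5 to 7 without each sample) and 8 in Pcgf5-/- (3 to 8), with 4 in Pcgf5-/- when no minimum was set. For the change of the genotype effect it was 1, 0 with no minimum and 0 to 2 without each sample. In every comparison, the number called over all genes was also lower when any single sample was left out. No cause of these changes was tested.

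The labels number the samples 1 and 2 in each group. The differences between sample 1 and sample 2 correlated at r = 0.388 between the genotypes at day 6 and 0.102 at day 0. Across the days r was from −0.0765 to −0.022, which cannot show whether the numbers pair samples within a day. The study's methods mention fold changes in paired samples of both genotypes but not how these were paired. The main fit took no pairing. With the replicate block for the number, 2 FGF genes were called at day 6 and 1 for the change of the effect. With a replicate block within each day it was 5 and 5, beside 3235 and 1167 of 13214 genes. This added Spry4 (adjusted p = 0.0054 by limma), Spry2 (0.0195) and Fgf5 (0.00991) at day 6. Within numbers 1 and 2, the day 6 ratio of Pcgf5-/- to WT was 3.68 and 4.69 for Spry4. It was 1.41 and 1.42 for Spry2 and 2.46 and 4.09 for Fgf5. The ratios lay on both sides of 1 for Fgf8 (2.57 and 0.926) and Fgfr4 (0.803 and 1.64).

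Signs turned for differences that were not called. Between the genotypes at day 0, Fgfr2 had −0.08 under quantile normalization and −0.01 under median-of-ratios scaling, and −0.32 to 0.44 without each sample. Spry2 in WT over the 6 days had −0.15 under median-of-ratios scaling and −0.24 to 0.43 without each sample. Without each sample in turn, the day 0 difference ranged from −0.06 to 0.53 for Fgf4, −0.04 to 0.15 for Fgf5, −0.09 to 0.46 for Fgf8 and −0.58 to 0.03 for Fgfr1, and the change of the genotype effect for Fgf8 from −0.10 to 0.52. Over all genes, 44 were called between the genotypes at day 0, and 102 with a minimum of 5 FPKM, 2 with median-of-ratios scaling, 3 with quantile normalization, 6 with no minimum, 2 with no variance trend, 0 in a fit of the compared groups, 1 with the replicate block and 282 with a block within each day. For the change of the effect 408 were called, and 251 with 0.1 added and 86 with no minimum.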
